A study of Mus musculus with 6 samples.

Results

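The 32 genes described here are markers of the fibroblasts that line the brain's surface (the leptomeninges) and sheathe its larger vessels. They were chosen by name from what is known of these cells, but with earlier results of these data already known. The fixed list held 8 collagen chains, 5 small leucine-rich proteoglycans, 6 other matrix and secreted proteins and 2 matrix-processing proteins. It also held 5 solute carriers, 3 retinoid or prostaglandin proteins and 3 forkhead transcription factors. All 32 were found among the 35275 gene identifiers of the count table, and all 32 passed the filter on low counts that left 16938 genes for testing. The measurements are poly-A RNA sequencing of forebrains from 6 C57BL/6 mice at postnatal day 9. Of these, 3 were conditional knockouts (cKO) that carried Pdgfra-CreER and 2 floxed Parp1 alleles (Pdgfra-CreER:Parp1fl/fl), and 3 were littermate controls with the floxed alleles and no Cre (Parp1fl/fl). Mice of both groups were given tamoxifen intraperitoneally, with a daily dose on postnatal days 1 to 3. The product of Parp1 attaches chains of ADP-ribose to proteins, above all at DNA breaks, and the study asked what its loss does to oligodendrocyte precursors and their descendants.

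CreER is a recombinase that enters the nucleus when tamoxifen binds it, and here it was driven by Pdgfra. In the brain Pdgfra marks oligodendrocyte precursor cells, but the leptomeningeal and perivascular fibroblasts express it too, so these cells can also recombine. The share of fibroblasts that lost Parp1 was not measured. Parp1 itself was at 90.8, 97.3 and 85.6 CPM (counts scaled to library size) in controls 1, 2 and 3. It was at 80.8, 79.7 and 79.1 CPM in cKO 1, 2 and 3. Whole forebrain holds many cells without the recombinase, and the reason for the size of this difference was not tested.

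Brain fibroblasts make most of the fibrillar collagen of the brain, lay down the outer layer over its basement membrane, and carry transporters that move amino acids, anions and drugs between cerebrospinal fluid and blood. During development the meninges release retinoic acid, made by Aldh1a2, and CXCL12, and they depend on Foxc1. They are a small share of the cells of a forebrain, and how much of the meninges stays on the tissue differs from dissection to dissection. In RNA from whole forebrain, fewer fibroblasts and less RNA per fibroblast cannot be told apart.

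No member was called at an adjusted p under 0.05 by edgeR's quasi-likelihood test, where 0.059% of all tested genes were called higher in cKO and 0.207% lower. Before adjustment 8 of the 32 members (25%) had p under 0.05, all higher in cKO, against 3.52% of all tested genes higher and 2.75% lower. The 8 were Col1a1, Col5a2, Col6a2, Col6a3, Lum, Bgn, Mmp2 and Foxc1. In 6 members every cKO library was above every control library (Col5a2, Col6a1, Col6a2, Col6a3, Bgn and Foxc1), against 6.08% of all tested genes, and in 0 members every cKO library was below, against 5.86%. The log2 fold change of cKO against control was above 0 in 24 of 32 members (75%), against 49.8% of all tested genes. Its median was 0.16 over the members and -0.00068 over all tested genes. As the members were chosen with earlier results known, these shares describe the list and are not a test of it. The members with unadjusted p under 0.05 all encode matrix proteins or a matrix protease, apart from Foxc1, while none of the solute carriers or retinoid and prostaglandin genes was among them. With 3 mice against 3, the smallest p of an exact two-sided permutation test of 1 gene is 0.1, so only the fit across all genes can pass the threshold.

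The libraries differed in the members beyond the groups. Total counts ran from 17262042 to 29310193 per library, and the labels call each a separate mouse. cKO 3 was the lowest cKO library in 27 of 32 members (84.4%), against 35.7% of all tested genes. Control 3 was the highest control in 24 of 32 members (75%), against 37.6% of all tested genes. Control 3 also stood apart in regional neuron genes: the summed level of 8 striatal genes was 224 CPM there, while the other libraries held 694 to 902 CPM, and that of 8 thalamic genes was 721 CPM, where the others held 317 to 362 CPM. For many of the members, fitted values without such a library are given beside the main value. The Y-linked gene Ddx3y had 1123 counts in control 1 and at most 1 count in each other library, and the labels do not give the sex of each mouse. By this gene only control 1 read as male, so sex was not balanced between the groups. Control 1 was the lowest control in 20 of 32 members (62.5%), against 31.2% of all tested genes. The part of sex in the member values was not tested.

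**Figure D1:**
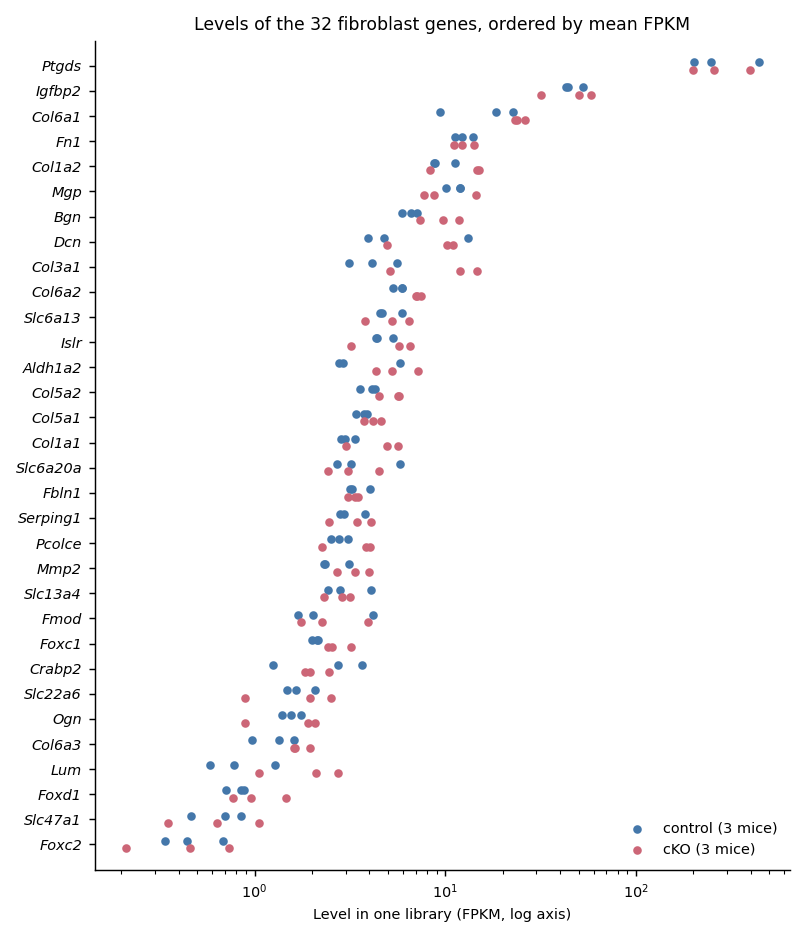
Level of each of the 32 genes in FPKM (fragments scaled to gene length and library size, horizontal log axis) in every library, with genes ordered by their mean over the 6 libraries, and blue points for the 3 controls and red points for the 3 cKO mice. Ptgds lies far above the others with a mean of 289 FPKM, and the colours intermix in most rows.

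Compared per length, Ptgds was by far the most abundant member, with a mean level of 289 FPKM over the 6 libraries. It was followed by Igfbp2 at 46.7 FPKM, Col6a1 at 20.6, Fn1 at 12.5, Col1a2 at 11.1 and Mgp at 10.8 FPKM. The lowest were Foxc2 at 0.479 FPKM, Slc47a1 at 0.678 and Foxd1 at 0.940 FPKM. Several of the abundant members are not made by fibroblasts alone. Ptgds is also known in oligodendrocytes and choroid plexus, Igfbp2 in choroid plexus and astrocytes, and Fn1 in endothelium, so their totals count other cells too.

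The microRNAs of the miR-29 family are known repressors of collagen messages, and their sites are shown here as a sequence feature that most of the collagen members carry. The 3 mature forms, from RefSeq on GRCm38.p6, share the same seed, bases 2 to 8, printed in capitals:
mmu-miR-29a-3p: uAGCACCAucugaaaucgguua
mmu-miR-29b-3p: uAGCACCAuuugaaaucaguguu
mmu-miR-29c-3p: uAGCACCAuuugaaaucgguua
The complement of the seed, TGGTGCT, was searched on the sense strand of the longest annotated 3′ UTR of each gene, and a following A makes a match of 8 bases. It was present in 6 of the 8 collagen members (75%, 9 matches, 0.834 per kilobase) and in 2 of the other 24 members (8.33%), which were Mmp2 and Foxc1. Among all tested genes with an annotated 3′ UTR, 2289 of 14887 (15.4%, 0.112 per kilobase) had a match, and among 18 further collagen genes 9 did (50%). For the matched collagens, 1 site of 8 bases each is printed below in a window of 30 bases, 5′ to 3′ on the strand of the gene in mm10, with the matching bases in capitals:
Col1a1, chr11:94952527-94952556, plus strand: gaaggaatttcTGGTGCTAtagaagctgag
Col3a1, chr1:45348971-45349000, plus strand: aaatgtctcaaTGGTGCTAtaataaataaa
Col5a1, chr2:28038023-28038052, plus strand: cttgtctcttgTGGTGCTAtgtgtccggag
Col5a2, chr1:45374954-45374983, minus strand: tcttttaatgaTGGTGCTAaaattatttct
Col6a2, chr10:76598739-76598768, minus strand: acaaatgggggTGGTGCTAtttgaacgctt
Col6a3, chr1:90767400-90767429, minus strand: acctgtcaataTGGTGCTAaatgtgtctat
Col5a1 had 4 matches, 2 of them of 8 bases, and Col1a2 and Col6a1 had none in the annotated UTR. The median log2 fold change was 0.41 in the 6 collagen members with a match and 0.47 in the 2 without, and over all tested genes it was -0.0071 with and -0.0017 without a match. A match of letters is not a measured site, and mature microRNAs are not in these poly-A libraries.

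**Figure D2:**
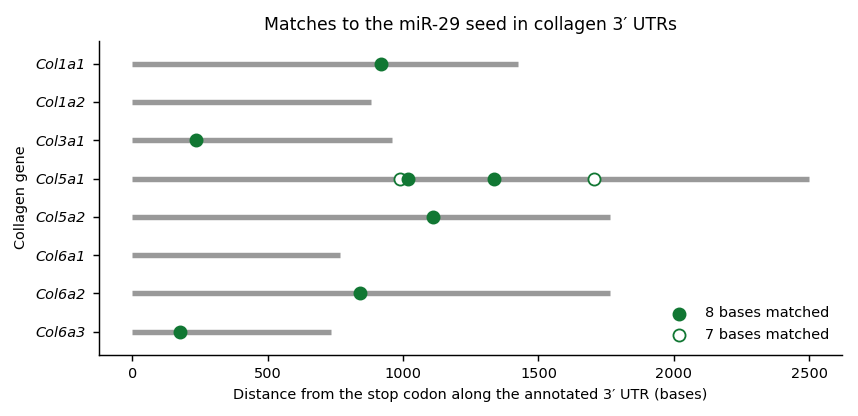
Position of each match to the miR-29 seed along the annotated 3′ UTR of the 8 collagen members, as distance from the stop codon in bases, with grey lines for the length of each UTR, filled circles for 8 matching bases and open circles for 7. Of the 8 genes 6 carry a match, Col5a1 carries 4, and Col1a2 and Col6a1 carry none.

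The fibrillar collagens form the banded fibres of connective tissue. Type I collagen joins the products of Col1a1 and Col1a2, type III is made from Col3a1 alone, and type V, from Col5a1 and Col5a2, starts the fibrils and sets their width. All 5 genes had log2 fold changes above 0, from 0.19 to 1.29 with a median of 0.41. Of the 5, 0 were called, 2 had an unadjusted p under 0.05, and Col5a2 alone had groups that did not overlap.

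Col1a1 (chr11:94936224-94953042 in mm10) was at 17.6, 16.7 and 20.1 CPM in controls 1, 2 and 3 and at 32.9, 29.4 and 18.3 CPM in cKO 1, 2 and 3. The first 2 cKO libraries were high, and cKO 3 lay among the controls. The fitted log2 fold change was 0.56 ± 0.212 (SE; 95% interval 0.06 to 1.06), with an unadjusted p of 0.0323 and an adjusted p of 0.753 by edgeR. Without cKO 3 it was 0.78, and edgeR then called Col1a1 (adjusted p = 0.0172), as it did Bgn. That was the 1 fit of 6 leaving out a library in which the unadjusted p of Col1a1 was under 0.05, and without cKO 1 its log2 fold change was 0.39 (edgeR adjusted p = 0.864).

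Col1a2, the partner chain, had the same shape, with 46.7, 46.9 and 60.8 CPM in the controls and 78.8, 78.8 and 45.3 CPM in the cKO libraries. Its lowest value of all 6 was in cKO 3, so the groups overlapped (log2 fold change 0.39, 95% interval -0.27 to 1.05, edgeR adjusted p = 0.862). Without cKO 3 the fit for Col1a2 gave 0.61 (edgeR adjusted p = 0.0889), and without cKO 2 it gave 0.26.

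Col3a1 (chr1:45311538-45349706) had the largest fitted difference of the 32 genes. Its level was 17.3, 22.8 and 31.2 CPM in the controls and 80.1, 67.1 and 29.01 CPM in the cKO libraries. Again cKO 1 and cKO 2 stood high and cKO 3 fell within the range of the controls, and the highest library was 4.64 times the lowest. The means were 23.8 ± 7.02 CPM in controls and 58.7 ± 26.6 CPM in cKO (SD, n = 3), a log2 fold change of 1.29 ± 0.489 (SE; 95% interval -0.03 to 2.62). The edgeR adjusted p was 0.807. Leaving out 1 library at a time put the log2 fold change between 1.01 and 1.62, with the highest value reached without cKO 3.

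Col5a2 (chr1:45374321-45503282) had a smaller and more even difference. It was at 23.5, 28.1 and 27.5 CPM in the controls and at 37.0, 37.8 and 30.5 CPM in the cKO libraries. Every cKO library, cKO 3 included, lay above every control. On the log2 scale the fold change was 0.41 ± 0.103 (SE; 95% interval 0.19 to 0.63; unadjusted p = 0.00173, edgeR adjusted p = 0.253), and the unadjusted p stayed under 0.05 whichever library was left out. Col5a2 lies tail to tail with Col3a1, with 24614 bp between them. Col5a1 was close in level (28.5 to 33.0 CPM in controls, 31.8 to 39.4 CPM in cKO) with a log2 fold change of 0.19, and its exons overlap those of 2 transcripts on the opposite strand.

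Type VI collagen is a beaded microfilament that sits between basement membranes and the fibrillar matrix, and its unit joins the chains of Col6a1, Col6a2 and Col6a3. All 3 chains had groups that did not overlap, with cKO higher, where 6.08% of all tested genes did. In Col6a1 and Col6a3 the lowest cKO library was only just above the highest control. Their log2 fold changes were 0.55, 0.34 and 0.40. Col6a2 and Col6a3 had unadjusted p under 0.05, Col6a1 did not, and 0 of the 3 were called.

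Col6a2 (chr10:76595762-76623630) had the smallest adjusted p of the 32 members. It was at 29.1, 28.8 and 26.3 CPM in the controls and at 36.0, 34.5 and 35.7 CPM in the cKO libraries. The libraries within each group lay close together, at 28.1 ± 1.51 CPM in controls and 35.4 ± 0.776 CPM in cKO (SD, n = 3), and cKO 3 was level with the other cKO mice. The log2 fold change was 0.34 ± 0.0776 (SE; 95% interval 0.17 to 0.50; edgeR unadjusted p = 0.000915, adjusted p = 0.182). It ranged from 0.29 to 0.36 when 1 library was left out, with unadjusted p under 0.05 each time.

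Col6a1 (chr10:76708792-76726168), 85161 bp from Col6a2 on the same strand, was at 92.2, 75.1 and 38.6 CPM in the controls and at 93.8, 98.4 and 109 CPM in the cKO libraries. The cKO libraries were alike, and most of the difference between means came from control 3, whose value was the lowest by far. The fit gave 0.55 ± 0.347 (SE; log2; edgeR adjusted p = 0.862), and 0.26 without control 3. Control 3 was also the library low in striatal genes, of which Ppp1r1b was at 39.6 CPM there and at 221 to 303 CPM in the other 5; the part of tissue sampling in the Col6a1 value was not tested.

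Col6a3 (chr1:90765923-90843971) was at 9.76, 13.5 and 16.4 CPM in the controls and at 19.5, 16.6 and 16.6 CPM in the cKO libraries. The lowest cKO value was just above the highest control value. Its log2 fold change was 0.40 ± 0.164 (SE; edgeR adjusted p = 0.753), and leaving out control 1 gave 0.23. Its unadjusted p was under 0.05 in 1 of 6 fits that left out a library.

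Summed over the 8 collagen members, the level was 265, 263 and 254 CPM in the controls and 413, 395 and 324 CPM in the cKO libraries. The 3 controls lay within a few percent of each other, and each cKO library stood above all of them. Both depend on Col6a1, which was at 38.6 CPM in control 3 and at 109 CPM in cKO 3. Control 3 moved in opposite directions in the parts of this sum. It was the highest control for the 5 fibrillar members (173 CPM, against 134 and 146 CPM in controls 1 and 2). For the 3 type VI chains it was the lowest control (81.4 CPM, against 131 and 117 CPM). That low sum came mostly from Col6a1. In control 3 Col6a2 was only slightly below the other controls (26.3 CPM), and Col6a3 was the highest control (16.4 CPM). The fibrillar sum alone overlapped between groups, with cKO 3 at 162 CPM, below control 3. All 8 collagens kept a log2 fold change above 0 in each of the 18 alternative analyses, which share the same mice.

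**Figure D3:**
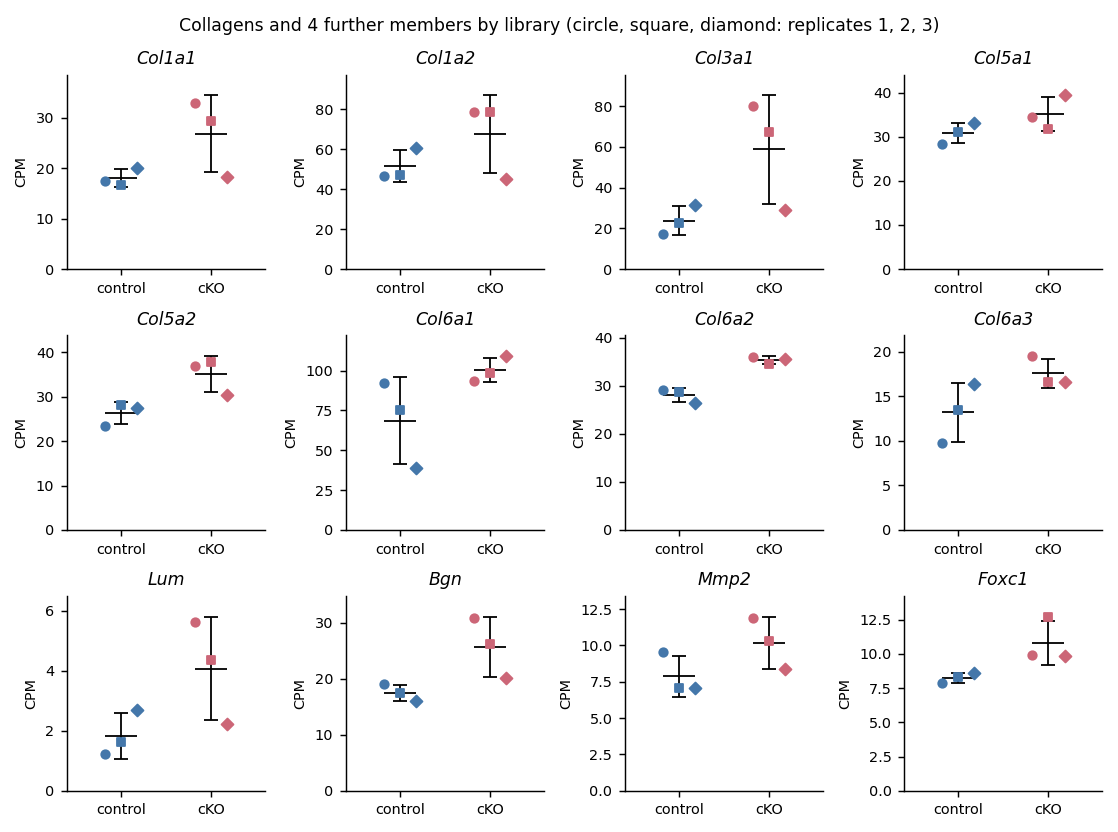
Level in CPM (vertical axis from 0) of the 8 collagen members and of Lum, Bgn, Mmp2 and Foxc1 in each library, with circles, squares and diamonds for replicates 1, 2 and 3, long bars for group means and error bars of 1 SD (n = 3). In Col1a1, Col3a1 and Lum the diamond of cKO 3 sits among the controls, and in Col1a2 it sits just below them. In Col5a2, the 3 collagen VI chains, Bgn and Foxc1 all cKO points are above all control points.

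The small leucine-rich proteoglycans coat collagen fibrils and set their spacing. Of the 5 members, 4 had log2 fold changes above 0 with a median of 0.23, 0 were called, and Bgn and Lum had an unadjusted p under 0.05.

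Dcn, encoding decorin, a widely used marker of fibroblasts, was at 7.39, 8.97 and 25.2 CPM in the controls and at 20.5, 19.3 and 9.57 CPM in the cKO libraries. Control 3 was the highest of all 6 and cKO 3 lay with controls 1 and 2, so the groups overlapped (log2 fold change 0.23, 95% interval -1.46 to 1.91, edgeR adjusted p = 0.969). Without control 3 the fit gave 0.98, and without control 1 it gave -0.06, neither of them called.

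Lum, encoding lumican, lies 46984 bp downstream of Dcn on the same strand. It was at 1.21, 1.61 and 2.69 CPM in the controls and at 5.62, 4.36 and 2.23 CPM in the cKO libraries, from 21 to 114 counts per library. Only cKO 1 and cKO 2 stood above the controls. Lum had a log2 fold change of 1.11 ± 0.382 (SE; 95% interval 0.25 to 1.97; edgeR unadjusted p = 0.0166, adjusted p = 0.635), with unadjusted p under 0.05 in 3 of 6 fits that left out a library. It was 0.82 without cKO 1 and 1.48 without control 3.

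Bgn, encoding biglycan, on the X chromosome, was at 19.0, 17.4 and 16.0 CPM in the controls and at 30.8, 26.1 and 20.1 CPM in the cKO libraries. All cKO libraries were higher, with cKO 3 nearest to the controls. Bgn had a log2 fold change of 0.55 ± 0.143 (SE; 95% interval 0.24 to 0.87; edgeR unadjusted p = 0.00274, adjusted p = 0.301), and its unadjusted p was under 0.05 whichever library was left out. Bgn was called without cKO 3 (edgeR adjusted p = 0.0372), with DESeq2 (adjusted p = 0.0406) and without the filter on low counts (edgeR adjusted p = 0.0230), as was Col5a2 in the last of these (adjusted p = 0.0146). Ogn and Fmod had log2 fold changes of 0.04 and -0.01, with overlapping groups, and Fmod followed Dcn in being highest in control 3 (13.2 CPM, against 5.24 and 6.29 CPM in the other controls). Without control 3 Fmod was at 0.52, and without cKO 2 at -0.42. Ogn was at 0.34 without cKO 3 and at -0.20 without cKO 2.

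The other matrix and secreted proteins lay near 0. The log2 fold changes of the 6 members ran from -0.13 to 0.13 with a median of 0.00, and 0 of the 6 had an unadjusted p under 0.05. Fbln1, encoding fibulin-1, an elastic fibre and basement membrane protein, was at 11.5, 11.7 and 14.8 CPM in the controls and at 11.1, 12.9 and 12.6 CPM in the cKO libraries. These values interleave (log2 fold change -0.06, 95% interval -0.34 to 0.22). Fn1, encoding fibronectin, was at 93.1 to 117 CPM in controls and 94.2 to 118 CPM in cKO, and its log2 fold change of 0.00 had a 95% interval from -0.22 to 0.23. Its exons overlap those of Apol7d on the opposite strand by 292 bp. Igfbp2, which binds insulin-like growth factors, was at 56.0, 68.4 and 58.0 CPM in the controls and at 74.6, 66.3 and 42.5 CPM in the cKO libraries. The cKO libraries of Igfbp2 lay on both sides of the controls, and its means were 60.8 and 61.2 CPM. Mgp, an inhibitor of calcification, Islr, a fibroblast surface protein, and Serping1, the inhibitor of complement C1, had log2 fold changes of -0.13, 0.13 and 0.05. Leaving out cKO 2 put Mgp at -0.47, and leaving out cKO 3 put Islr at 0.37 and Igfbp2 at 0.21. Exons of Islr overlap those of Islr2 on the same strand by 181 bp, so their reads are less certain to be told apart.

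Mmp2 encodes a protease that cuts collagen and gelatin, and Pcolce encodes a helper of the enzyme that trims procollagen. Mmp2 was at 9.53, 7.04 and 7.07 CPM in the controls and at 11.9, 10.3 and 8.35 CPM in the cKO libraries. Control 1 lay above cKO 3, and the rest were in order of group. Its log2 fold change was 0.37 ± 0.168 (SE; edgeR unadjusted p = 0.0471, adjusted p = 0.785), and its unadjusted p was under 0.05 in 2 of 6 fits that left out a library. Pcolce had a log2 fold change of 0.27, with 10.2 and 9.93 CPM in cKO 1 and cKO 2 and its lowest value, 5.91 CPM, in cKO 3, without which the log2 fold change was 0.48. Without cKO 1 it was 0.14. Exons of Pcolce overlap those of Fbxo24 on the same strand by 112 bp.

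The solute carriers are the members that mark transport across the meningeal barrier layers. Slc6a13 carries GABA and taurine, Slc6a20a carries proline, Slc13a4 carries sulfate, Slc22a6 carries organic anions, and Slc47a1 exports organic cations. Their log2 fold changes ran from -0.24 to 0.04 with a median of 0.02, and 0 of the 5 had an unadjusted p under 0.05 or groups apart. Slc6a13 was at 10.4, 10.1 and 13.4 CPM in the controls and at 11.6, 14.5 and 8.70 CPM in the cKO libraries, which overlap fully (log2 fold change 0.04, 95% interval -0.38 to 0.45). Summed over the 5 carriers the level was 35.4, 35.0 and 54.6 CPM in the controls and 39.2, 51.3 and 28.3 CPM in the cKO libraries. Control 3 was highest and cKO 3 lowest in this sum, and the groups overlapped. The sign of the carriers' log2 fold changes turned on single libraries. Without control 3 all 5 were above 0, from 0.09 (Slc13a4) to 0.24 (Slc47a1), and without cKO 2 all 5 were below 0, from -0.52 (Slc6a20a) to -0.17 (Slc6a13). By limma-voom with quality weights they ran from 0.10 to 0.39. None of the 5 was called in these fits. Slc6a20a shares exon sequence with 3 genes on the opposite strand.

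Aldh1a2 makes retinoic acid, Crabp2 carries it to the nucleus, and Ptgds makes prostaglandin D2 and carries lipids in cerebrospinal fluid. Aldh1a2 was at 6.24, 6.53 and 13.2 CPM in the controls and at 11.7, 16.3 and 10.02 CPM in the cKO libraries. Controls 1 and 2 were below every cKO library and control 3 was among them. The log2 fold change was 0.54 (95% interval -0.29 to 1.37, edgeR adjusted p = 0.854). Without control 3 it was 0.98 with an adjusted p of 0.0517, the closest to the threshold of any member in that fit. Ptgds was at 267, 324 and 589 CPM in the controls and at 333, 527 and 269 CPM in the cKO libraries. It varied 2.21 times between mice with no order by group (log2 fold change -0.07, 95% interval -1.26 to 1.13), and the fit gave 0.34 without control 3 and -0.39 without cKO 2. Crabp2, at 1.16 to 3.42 CPM, had a log2 fold change of -0.30, and of 0.04 without control 3.

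The forkhead factors Foxc1 and Foxc2 are needed for the meninges and for mural cells, and Foxd1 marks meningeal and pericyte precursors. Foxc1 (chr13:31806633-31812476) was at 7.85, 8.33 and 8.58 CPM in the controls and at 9.92, 12.7 and 9.81 CPM in the cKO libraries. The controls lay within 1 CPM of each other and all cKO libraries were above them. Its log2 fold change was 0.39 ± 0.138 (SE; 95% interval 0.09 to 0.69; edgeR unadjusted p = 0.0155, adjusted p = 0.631), with unadjusted p under 0.05 in 5 of 6 fits that left out 1 library. Foxc2 was at 0.924, 1.20 and 1.87 CPM in the controls and at 1.23, 2.02 and 0.591 CPM in the cKO libraries. Its highest cKO value was 3.41 times its lowest, and the groups overlapped (log2 fold change -0.08, and 0.28 without cKO 3). Foxd1 had a log2 fold change of 0.39, with an adjusted p of 0.862 by edgeR. That value rested on cKO 2, at 3.63 CPM where the other libraries held 1.73 to 2.32 CPM, and was 0.08 without it.

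**Figure D4:**
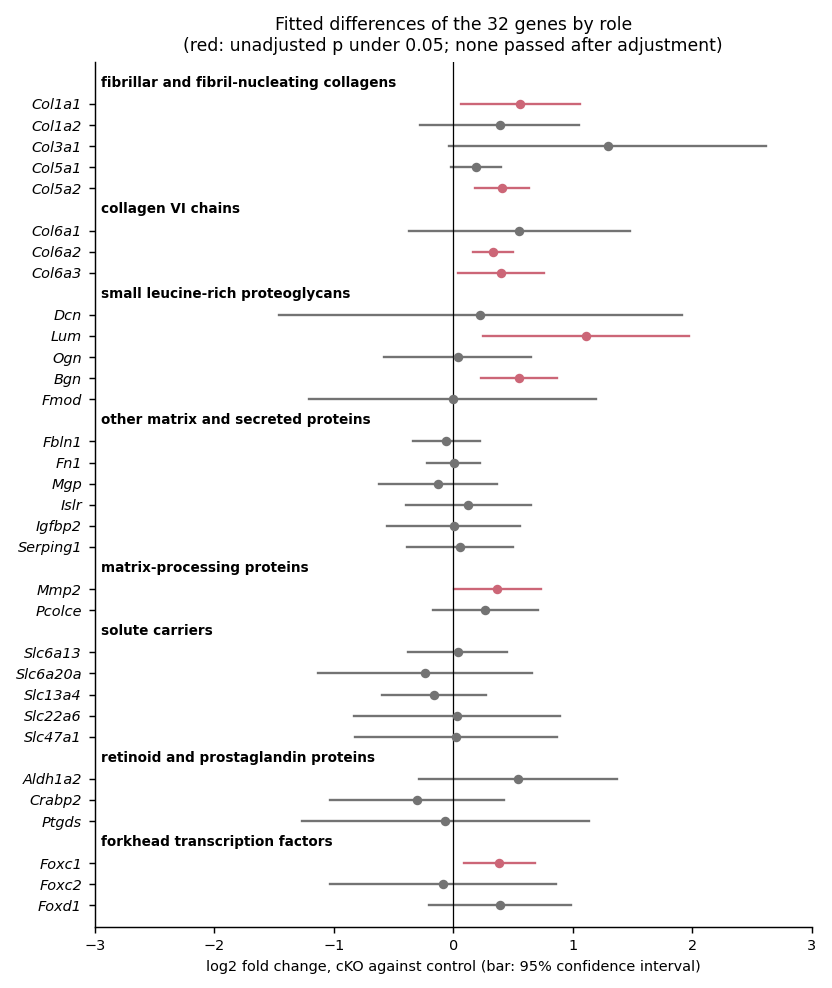
Log2 fold change of cKO against control for each of the 32 genes by role (points), with 95% confidence intervals from the edgeR fit (bars), and red for an unadjusted p under 0.05. Points of the collagens lie right of 0, those of the solute carriers and other matrix proteins lie around 0, and no gene passed after adjustment.

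Libraries ranked as follows within the roles. Type I and III collagen, Lum, Bgn, Mmp2 and Pcolce were highest in cKO 1 or cKO 2, and cKO 3 was lowest of the cKO libraries in each of these. Dcn, Fmod, Fbln1, Slc6a20a, Slc13a4, Crabp2 and Ptgds were highest of all libraries in control 3. The type VI chains Col6a1 and Col6a2, and Col5a1, were the collagens in which cKO 3 was not the lowest cKO library.

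**Figure D5:**
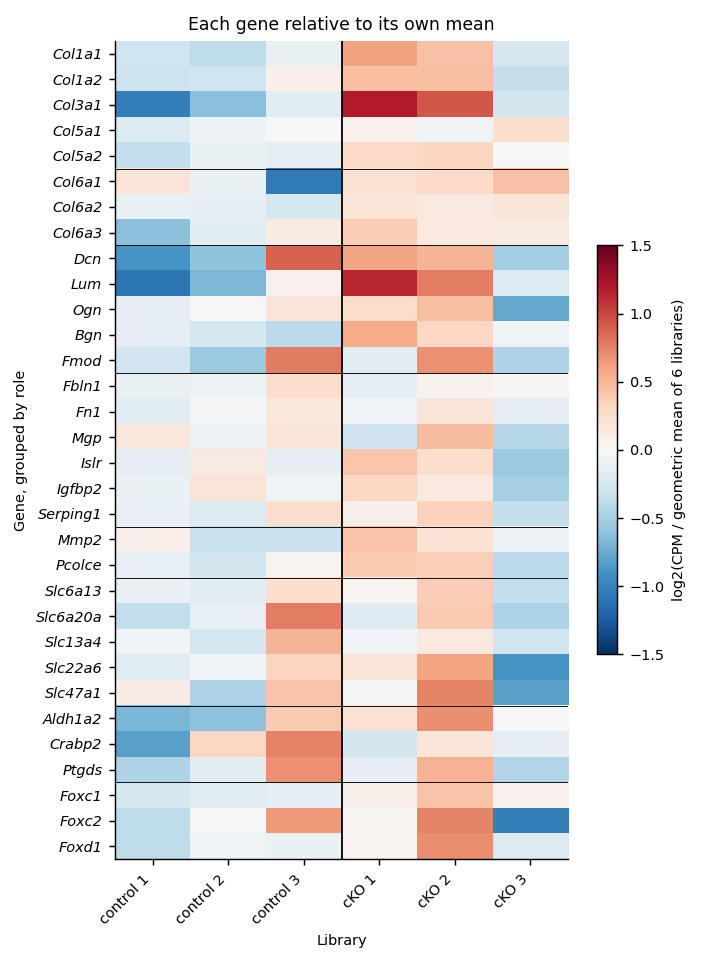
Level of each of the 32 genes in each library as log2 of CPM over that gene's geometric mean of the 6 libraries, with genes in rows grouped by role and libraries in columns, blue below and red above the mean. The collagen rows are mostly blue in controls and red in cKO 1 and cKO 2, and the column of cKO 3 is blue in most rows below the collagens while that of control 3 is red.

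Further genes of the same pathways were read from 14 lists. Of their 200 tested genes that are not members, each counted once, 0 were called by edgeR, 32 (16%) had an unadjusted p under 0.05 with cKO higher, and 5 with cKO lower. Their median log2 fold change was 0.09. The share was lower than that of the members and above the 3.52% of all tested genes. Library order differed among these genes. cKO 3 was highest of all libraries in C1qc, C4b and Tgfbi. It was lowest of the cKO libraries in Col13a1, Col15a1 and Spp1, as in most members. The lists hold pathway genes, such as those of complement, and are not confined to fibroblast markers. These lists too were chosen with earlier results known, so their shares are descriptions only.

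Among 18 further collagen genes, 5 had an unadjusted p under 0.05 with cKO higher (Col8a1, Col13a1, Col15a1, Col18a1 and Col24a1) and 1 with cKO lower (Col5a3, a type V chain). Col15a1, of a basement membrane collagen, was at 23.6 ± 2.34 CPM in controls and 37.2 ± 8.03 CPM in cKO (SD, n = 3; log2 fold change 0.65), and Col13a1, of a membrane-bound collagen, had a log2 fold change of 1.13. Of 27 genes that fold, hydroxylate, trim and crosslink collagen, 0 had an unadjusted p under 0.05, and the 2 smallest p were those of Plod1 and P3h3, with log2 fold changes of 0.21 and 0.19. Of 10 tested further leucine-rich proteoglycans, 1 had an unadjusted p under 0.05 (Aspn, log2 fold change 0.70), and Tsku was next at -0.31. Of 24 further matrix glycoproteins, 5 did, all with cKO higher, namely Postn (log2 fold change 0.52), Tgfbi (0.65), Emilin1, Fbln2 and Fbn2. Of 15 tested matrix proteases and inhibitors, Ctsk (0.55) and Timp4 (-0.24) did, in opposite directions. The collagens and glycoproteins thus held 10 of the 32 genes with an unadjusted p under 0.05 and cKO higher, and the collagen-modifying enzymes held none.

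In the retinoic acid pathway 4 of 14 tested genes had an unadjusted p under 0.05 with cKO higher and 1 with cKO lower (Cyp26b1, which degrades retinoic acid). Cyp1b1, a mural and fibroblast enzyme, was at 14.7 ± 2.10 CPM in controls and 23.7 ± 4.53 CPM in cKO (log2 fold change 0.69, edgeR adjusted p = 0.138), and Aldh1a3, which makes retinoic acid as Aldh1a2 does, had a log2 fold change of 0.54. Of 10 tested prostaglandin genes, 3 did, all with cKO higher: Hpgd (log2 fold change 0.45), Ptgs1 (0.36) and Ptgs2. Of 14 tested meningeal transcription factors, Tbx18 alone did, at 4.82 ± 0.560 CPM in controls and 8.82 ± 1.72 CPM in cKO (log2 fold change 0.86, edgeR adjusted p = 0.105), and Foxf1 was next at -0.53. Of 11 further meningeal transporters, 0 did, with Slc6a12 at -0.47 and Slc23a2 at -0.09. The transporters outside the members, as those among them, held no gene with an unadjusted p under 0.05.

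Among 23 further fibroblast markers, 6 had an unadjusted p under 0.05 with cKO higher: Spp1, Apod, Lamc3, Moxd1, Pdgfrb and Vim. Spp1 (osteopontin, also made by microglia) had a log2 fold change of 1.03. The 1 with cKO lower was Pdgfra, the gene that drives the recombinase, at 163 ± 14.9 CPM in controls and 119 ± 17.7 CPM in cKO (log2 fold change -0.45, edgeR adjusted p = 0.253), which is also a marker of oligodendrocyte precursors. Of 6 arachnoid barrier markers, Dpp4 (0.65) and Cldn11 (-0.50) passed the unadjusted threshold, and Cldn11 is also a myelin gene. Of 12 genes of the TGF-beta pathway, a driver of collagen expression, 2 did, with Tgfbr2 at 0.35 and Eng at 0.32. Of 10 tested complement genes, 2 did, with C4b at 0.66 and C1qc at 0.51. Of 10 genes of the IGF axis, Igfbp7 (0.25) alone did, and Igfbp4 was at 0.22.

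Marker genes of other cells that could carry member transcripts were read in the same libraries. Summed levels ranged over 676 to 838 CPM in controls and 725 to 781 CPM in cKO for 11 choroid plexus genes, and over 315 to 324 CPM and 318 to 382 CPM for 10 endothelial genes. They ranged over 184 to 215 CPM and 160 to 231 CPM for 10 mural cell genes, and over 24.9 to 39.8 CPM and 35.1 to 43.9 CPM for 8 genes of border macrophages. None of these genes was called. Log2 fold changes were above 0 in 10 of 10 tested endothelial genes, 7 of 10 mural genes and 7 of 7 border macrophage genes. Their medians were 0.08, 0.17 and 0.22. In the choroid plexus 3 of 10 tested genes were above 0, with a median of -0.26. The mural sum was lowest of all in cKO 3, at 160 CPM. Among the cKO libraries alone, cKO 3 was also the lowest in 27 of 32 members. The blood genes varied from 8.12 to 188 CPM in controls and from 9.67 to 115 CPM in cKO, with the highest values in control 1 and cKO 1. In the oligodendrocyte lineage 11 of 12 markers were called lower (952 to 1057 CPM in controls, 446 to 480 CPM in cKO). Genes of tissue outside the brain were scarce: 10 cartilage and bone genes summed to 8.26 to 13.02 CPM in controls and 10.7 to 11.6 CPM in cKO, 8 muscle genes to 15.7 to 17.1 and 14.1 to 15.7 CPM, and 6 skin genes to 3.36 to 5.20 and 3.59 to 4.09 CPM. The defining genes Krt5 and Krt14 (skin) had at most 2 and 7 counts per library, and Myod1 and Myog (muscle) at most 3 and 9. Matn1 (cartilage) and Sp7 (bone) reached 16 and 29 counts, both in control 2, and Bglap (bone) had at most 4. Of these other cell types, the part of each in the collagen values was not tested. Microglia were not among the marker lists read.

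The promoters of 21 members were in the RefSeq table (GRCm38.p6). For each of these members only the promoter nearest the annotated gene start was used. The shares over 32851 promoters take every promoter listed, so the compared shares are not fully alike. In the 250 bases before the start, on either strand, CCAAT was found in 6 of 21 (28.6%, against 33.9% of 32851 promoters), GGGCGG in 11 (52.4%, against 32.7%), and TATAAA in 2 (9.52%, against 12.4%).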

How the data were processed

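Poly-A RNA of 6 forebrains was sequenced from directional libraries, per the labels' protocols. The authors deposited, per Ensembl gene, whole-number counts of reads. CASAVA, STAR 2.5, HTSeq 0.6.1, DESeq and mm10 are named, without roles, in the submitters' processing notes. Which strand setting and which annotation release were used is not given in the sources used here, so counts of overlapping genes are less certain. The deposited FPKM values are the authors' counts scaled to gene length and library size. Names and coordinates are from GENCODE M21 (mm10), in which 34490 of the 35275 identifiers had a name and 785 did not.

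Tests used edgeR 4.0.16 in R 4.3.3. The filter was filterByExpr (minimum count 10, minimum total 15), scaling was by TMM, and the test was the two-sided quasi-likelihood test with robust dispersion. Benjamini-Hochberg adjustment covered all 16938 tested genes, with calls at an adjusted p under 0.05. CPM is the count scaled to the TMM library size, intervals are at 95%, and n is 3 mice per group. No 2 libraries agreed within sampling noise (chi-square per degree of freedom from 4.34 to 23.8). Whether the mice came from separate litters is not given. The fit was tested on simulated data.

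Alternatives tried were other tests (DESeq2 1.42.0, limma-voom with quality weights in limma 3.58.1, and edgeR without robust estimation), other scalings (size factors of DESeq2, upper quartiles, library size alone), other filters (none, or 1 CPM on average), limma on log2 FPKM with a pseudocount of 1 or 0.1, a replicate block, and leaving out each library. The members and lists were chosen with earlier results of these data known. All 6 values are given for members with an unadjusted p under 0.05, with groups that did not overlap, among the 3 most abundant or the 3 most variable, or first named of their role, and for Col1a2. From each other list the 2 genes with the smallest p are given with values; other genes with an unadjusted p under 0.05 were named after their values were seen. Not every gene of the lists is reported here.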

Additional observations from a re-analysis of the deposited data

How the results depend on the processing

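Of the 32 members, DESeq2 called 1 (Bgn) higher in cKO, and edgeR without the filter on low counts called 2 (Col5a2 and Bgn). Leaving out 1 library gave 0 to 2 calls, the 2 (Col1a1 and Bgn) without cKO 3. No alternative called a member lower. Members with an unadjusted p under 0.05 numbered 13 by limma-voom with quality weights, 5 by limma on log2(FPKM + 1) without a filter and 4 to 11 with 1 library left out. Over all genes, calls higher and lower in cKO numbered 49 and 60 by DESeq2, 50 and 61 without the filter, 4 and 20 on log2 FPKM with either pseudocount, and 3 and 14 on log2(FPKM + 1) without a filter. Calls higher numbered 6 without robust estimation and 4 to 19 with 1 library left out. The median log2 fold change of the members stayed above 0 in all 18 alternatives, from 0.05 without cKO 2 to 0.37 by limma-voom. Members with no call changed sign in some settings, up to 9 of 32 by limma-voom and 8 without control 3. Replicate numbers did not pair the samples (correlations of same-numbered deviations 0.00425, -0.0461 and 0.00694), and a replicate block gave 0 called members, 6 with an unadjusted p under 0.05 and 5 genes called higher. The filter on FPKM left 31 members. Depth limited the rarest members, such as Foxc2 at 0.591 to 2.02 CPM.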

Other observations

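Ratios between members within 1 library were chosen after the values were seen and are given without a test. The first was the summed FPKM of the 5 fibrillar collagens over that of the 5 solute carriers. It was 1.76, 1.94 and 1.502 in controls 1, 2 and 3 and 3.26, 2.31 and 2.60 in cKO 1, 2 and 3. In this ratio cKO 3 was not among the controls. The fibrillar sum itself was 25.6 FPKM in cKO 3 and 28.2 FPKM in control 3. The carrier sum was lowest in cKO 3 (9.82 FPKM) and highest in control 3 (18.8 FPKM). The FPKM ratio of Col3a1 to Col1a2 was 0.355, 0.468 and 0.493 in the controls and 0.977, 0.818 and 0.616 in the cKO libraries. That of Lum to its neighbour Dcn was 0.149, 0.163 and 0.0971 in the controls and 0.250, 0.205 and 0.212 in the cKO libraries. In these 3 of the 6 ratios computed the groups did not overlap. The summed FPKM of the 3 collagen VI chains over that of the solute carriers was 2.38, 2.09 and 0.866 in the controls and 2.36, 1.83 and 3.55 in the cKO libraries, with overlap. The ratio of Col1a1 to Col1a2, the 2 chains of type I collagen, was 0.339, 0.320 and 0.299 in the controls and 0.376, 0.336 and 0.364 in the cKO libraries, with overlap. The ratio of Col6a1 to Col6a2 was 3.80, 3.13 and 1.76 in the controls and 3.12, 3.42 and 3.67 in the cKO libraries, also with overlap, and control 3 stood apart in Col6a1 and not in its partner chain.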
